A study of Rattus norvegicus with 24 samples.

Results

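The genes described here encode the subunits of voltage-gated sodium channels (symbols beginning with Scn) and of voltage-gated calcium channels and their relatives (Cacna, Cacnb and Cacng). They were every named gene on the arrays whose symbol begins with 1 of these 4 stems followed by a digit. The rule gave 35 genes, 13 for sodium and 22 for calcium channels, of 26299 features tested, 9627 of which carry a gene name. The families hold 40 genes in the RefSeq table used for names, and Cacna1d, Cacna1s, Cacna2d4, Cacnb4 and Scn7a were not analysed here. Every one of the 35 had a single transcript with values in all 24 samples, and no filter on low values was applied. Of the 35, 13 were also in a shorter table of expressed transcripts that the authors deposited, among them Scn1a, Scn2a, Scn3a, Scn8a, Cacna1a, Cacna2d1, Cacna2d3, Cacnb1, Cacnb2, Cacnb3, Cacng2 and Cacng7.

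Gene expression was measured in spiral ganglia of Sprague-Dawley rats of both sexes. Deaf rats had received kanamycin, an aminoglycoside antibiotic that destroys hair cells, at 400 mg/kg by daily intraperitoneal injection between postnatal days 8 (P8) and 16 (P16), and their hearing littermates were not injected. Ganglia collected at P32 or at P60 were separated from the organ of Corti and cut into an apical and a basal portion, which gives 8 groups of age, condition and portion with 3 samples each. A sample pooled 4 to 6 ganglia, so it averages over several ganglia and over all cells of the ganglion, glia and macrophages included. In such bulk tissue, fewer cells of a type and less RNA per cell cannot be told apart.

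Voltage-gated sodium channels open on depolarization and carry the rising phase of the action potential. A large α subunit forms the pore, and smaller β subunits change its gating and tie it to adhesion molecules. Voltage-gated calcium channels let calcium in, which triggers transmitter release and activates calcium-dependent signalling. Their α1 subunit forms the pore, and the α2δ and β subunits bring it to the membrane and tune it. Most γ subunits are better known as TARPs, proteins that traffic and modulate AMPA-type glutamate receptors, the receptors through which hair cells excite spiral ganglion neurons.

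The arrays carried 1 colour, and their precision is limited by the number of arrays. Values are log2 of the deposited intensities, whose median per sample ran from 8.18 to 8.42. Replicate 1 of each group lies on a platform of 8 samples and replicates 2 and 3 on a platform of 16, and differences are given with platform as a term in the fit. Neuron markers were bright in every group: Tubb3 ran from 12.43 to 14.46 and Snap25 from 13.48 to 15.37. A list of 7 measured central glia markers (Gfap, Aqp4, Slc1a2, Mog, Mobp, Opalin and Olig1) separated basal from apical samples, with a summed log2 intensity of 14.64 to 15.81 in the 12 basal and 10.39 to 13.92 in 11 of the 12 apical samples. The exception was P32 hearing apex replicate 1, at 15.52. The hair cell marker Ocm ran from 4.33 to 13.15 over the samples, and the 7 measured hair cell markers summed to 9.89 to 11.31 in deaf and 10.15 to 13.43 in hearing samples. Where Ocm is bright, it makes up most of this sum. Over both portions, 3 of the 7 (Myo7a, Espn and Gfi1) were higher in deaf ganglia at both ages and 4 were lower. None of the 7 had an adjusted p under 0.05 in either comparison. Their part in the results was not tested.

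The rows of the 35 genes covered most of the brightness range of the arrays. Among the brightest by mean were Cacna2d3 and Cacng2, at 13.43 and 13.17, and the dimmest were Cacng1 and Scn11a, at 4.17 and 3.92. Cacna2d3 encodes an α2δ subunit and Cacng2 the TARP stargazin. Cacng1 is the γ subunit of skeletal muscle and Scn11a an α subunit of pain-sensing neurons. Brightness also depends on the probes, so no order of expression between genes is read from these values. The 25th percentile of all rows lay between 5.16 and 5.42 in the samples, and the files give no background level, so whether a dim row lies above background was not tested.

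Of these, Scn11a stayed between 3.52 and 4.61, a range of 1.09. Cacng1 had values of 3.64, 3.95 and 4.01 in P32 hearing apex and 5.34, 4.26 and 4.22 in P32 hearing base. A pair, here and in what follows, is 2 samples with the same replicate number that differ only in the label compared. The number alone does not show that deaf and hearing samples belong together, and samples of different ages are not counted in pairs. Deviations from the group means bore out pairs of deaf and hearing samples only in the P60 base. Counts of 6 deaf and hearing pairs also take each number in both portions, so they describe the values and are no test. Cacng1 was higher in the base in 6 of 6 pairs of hearing samples but did not pass the test (0.68 ± 0.28, adjusted p = 0.55). Cacng2 spread over 3.96 log2 units, mostly between replicate numbers, as described further on.

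**Figure D1:**
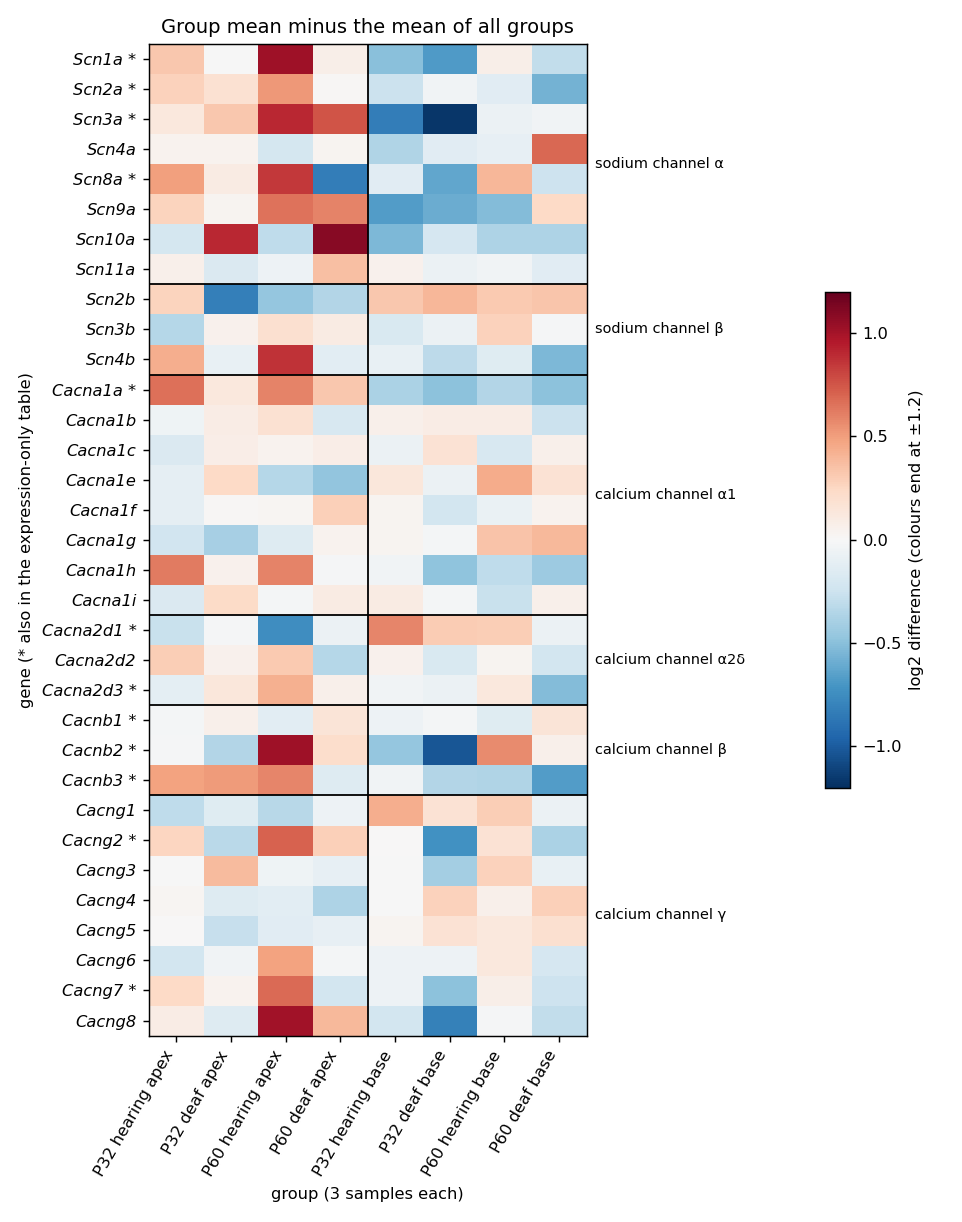
Group means of 33 of the 35 genes, each shown as the difference from the gene's mean over the 8 groups (colour, log2 intensity, 3 samples per group). Rows are genes ordered by subunit type and columns are groups, apical on the left and basal on the right. Scn10a is higher in both deaf apical groups, with means of 5.75 at P32 and 5.93 at P60, than in the other groups, with means between 4.30 and 4.64.

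Scn10a was the gene with the clearest pattern. It encodes Nav1.8, the sodium channel α subunit that resists tetrodotoxin and is known from small sensory neurons of the dorsal root and trigeminal ganglia, where it carries much of the action potential of nociceptors. Its intensity was higher in all 6 samples of the deaf apex than in the other 18. The row was dim throughout, with a mean at the 20.4th percentile of all features. Its highest value, 6.31, lay below the sample medians of 8.18 to 8.42, and it was not in the table of expressed transcripts. The gene lies on rat chromosome 8 beside an uncharacterized locus, and Scn11a, which also encodes a channel that resists tetrodotoxin, follows on the far side of that locus. The 250 bases upstream of the annotated starts are shown for Scn10a and Scn11a, neighbours that behaved differently, and for Scn4b, a β subunit gene elsewhere on the same chromosome whose mean was lower in deaf than in hearing apex at both ages. They are from RefSeq (build GRCr8), at chr8:128340299-128340548 on the minus strand for Scn10a, chr8:128444719-128444968 on the minus strand for Scn11a and chr8:54343623-54343872 on the plus strand for Scn4b. Capitals mark the matches of the searched motifs.
Scn10a: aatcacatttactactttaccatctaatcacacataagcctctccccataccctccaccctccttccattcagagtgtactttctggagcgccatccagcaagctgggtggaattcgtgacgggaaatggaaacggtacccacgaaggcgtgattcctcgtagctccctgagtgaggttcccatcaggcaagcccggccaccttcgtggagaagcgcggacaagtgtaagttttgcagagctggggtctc
Scn11a: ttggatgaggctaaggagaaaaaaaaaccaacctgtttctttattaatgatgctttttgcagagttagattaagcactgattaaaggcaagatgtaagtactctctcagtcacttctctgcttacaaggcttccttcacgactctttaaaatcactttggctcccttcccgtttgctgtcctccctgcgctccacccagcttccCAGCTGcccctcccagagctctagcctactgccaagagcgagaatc
Scn4b: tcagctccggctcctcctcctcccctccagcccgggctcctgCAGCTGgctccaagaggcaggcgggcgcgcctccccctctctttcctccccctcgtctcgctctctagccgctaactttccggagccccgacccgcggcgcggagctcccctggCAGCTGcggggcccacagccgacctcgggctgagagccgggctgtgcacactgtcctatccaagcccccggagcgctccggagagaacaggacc
Short forms of 5 motifs (AP-1, CRE, GC box, TATA box and E-box) were searched on both strands, and no matches overlapped in these windows. The Scn10a window held none of them, the Scn11a window held 1 E-box and the Scn4b window held 2. Of the 35 genes, 24 had a promoter entry, some with several starts, for 27 windows in all. An E-box, spelled CAGCTG, was in 5 of the 27 windows (Cacnb3, Cacng8, Scn4a, Scn4b and Scn11a) and in 12% of all 33469 windows of the same length. The letters GGGCGG of a GC box were in 13 of the 27 windows, from 11 of the 24 genes, and in 30.5% of all windows. The AP-1 letters TGANTCA were in 1 of the 27 windows, that of Scn3a, and in 6.34% of all windows. A TATA box, searched as TATAAA, was found for Cacng2 and in 12.9% of all windows. The CRE, TGACGTCA, was found for none of the 24 and in 1.59% of all windows. Base composition differed widely, from 38.4% G and C for Cacng2 to 86% for Scn8a, against a median of 51.2% over all windows.

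In P32 deaf apex the Scn10a values were 5.49, 6.31 and 5.46, and in P60 deaf apex 6.24, 5.69 and 5.86. In hearing apex they were 4.13, 5.11 and 4.65 at P32 and 4.28, 4.64 and 4.72 at P60. The lowest deaf apical value lay above the highest of the other 18 samples, 5.11 in P32 hearing apex replicate 2. In the base the deaf samples had 4.34, 4.85 and 4.72 at P32 and 4.15, 4.26 and 4.99 at P60, and the hearing samples had 4.10, 4.40 and 4.39 at P32 and 4.35, 4.52 and 4.53 at P60. Deaf and hearing basal samples thus overlapped at each age. Only 3 of the 26299 features (0.0114%) had all 6 deaf apical samples above the other 18, namely Scn10a, Rgs9, which encodes a regulator of G-protein signalling, and an unnamed transcript. This separation was noticed in the data and carries no test.

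Deaf and hearing apex differed in Scn10a by 1.39 ± 0.26 at P60 (log2, SE, 3 samples a side), or 2.62-fold, with group means of 5.93 ± 0.28 and 4.54 ± 0.23 (SD). The adjusted p was 0.0449, which made Scn10a the 1 gene of the 35 that rose, where 0.106% of all features were called. At P32 the apical difference was 1.12 ± 0.26 (means 5.75 ± 0.48 and 4.63 ± 0.49) and did not pass the test, with an unadjusted p of 0.000434 and an adjusted p of 0.734, and none of the 26299 features passed (0%). In the base it was 0.34 ± 0.26 at P32 and 0.00 at P60. The P60 apical call lay close to the threshold: it was lost in 19 of the 24 fits that each left out 1 sample, with an adjusted p from 0.0195 to 0.276 and a difference from 1.09 to 1.56. The difference was 1.96 on the platform of 8 samples and 1.10 on the platform of 16, where it did not pass (adjusted p = 0.781). With an offset of 50 added to the intensities before log2, which shrinks differences of dim rows, it was 0.60 and did not pass (adjusted p = 0.0615), so the size of the fold depends on how the low values are treated.

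Within deaf rats, Scn10a was lower in the base than in the apex by 1.29 ± 0.18 on the log2 scale, or 0.409-fold, over both ages. The 6 basal samples had a lowest value of 4.15, a median of 4.53 and a highest of 4.99, and the 6 apical samples had 5.46, 5.78 and 6.31. The groups did not overlap, which held for 0.148% of all features in this direction. All 6 pairs were lower in the base. The adjusted p was 0.00297, and Scn10a was the only 1 of the 35 genes that passed, where 0.973% of all features did. This call held in each of the 24 fits without 1 sample (adjusted p from 0.000742 to 0.0133) and was lost on the platform of 16 samples alone (-1.13, adjusted p = 0.139). With the offset of 50 the difference was -0.55 and passed (adjusted p = 0.00458). In hearing rats the same contrast was -0.21 ± 0.18. The difference between the portions in the deafness effect, base minus apex, was -1.08 ± 0.26, with an unadjusted p of 0.000592 and an adjusted p of 1, and none of the 26299 features passed (0%) while 0.532% had an unadjusted p under 0.05.

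Scn11a, close to Scn10a on the chromosome, showed no such separation. It had 3.66, 4.61 and 4.57 in P60 deaf apex and 3.74, 3.52 and 3.97 in P32 deaf apex, overlapping the hearing apex at both ages. In a list of nociceptor genes chosen after these values were seen, 7 of 8 were measured. Their summed log2 intensity ran from 10.08 to 10.74 in the deaf apex, 9.63 to 11.69 in the hearing apex, 10.47 to 13.57 in the deaf base and 10.44 to 12.91 in the hearing base. Calca, which encodes CGRP, averaged 7.14 in the deaf apex and 5.81 in the other samples, and it passed in 2 comparisons. It rose in deaf ganglia at P32 (1.62 ± 0.25, adjusted p = 0.0461), over both portions, and in deaf rats it was lower in the base than in the apex (-1.06 ± 0.25, adjusted p = 0.0451), as Scn10a was. It did not pass in the P60 apex, where Scn10a did (0.37 ± 0.35, adjusted p = 1). Trpv1, the capsaicin receptor, averaged 9.38 and 8.72, Trpa1 3.45 and 3.46, and Mrgprd 4.53 and 4.41. Lower averages in the deaf apex than elsewhere were those of Tac1 (7.29 and 9.93), Ret (5.97 and 7.18) and P2rx3 (6.83 and 7.01). Ret, a receptor tyrosine kinase, was higher in the base than in the apex of deaf rats (1.76 ± 0.39, adjusted p = 0.0323). The sum says little about dimmer genes such as Calca, since Tac1 reached 13.47 and differed by 3.56 ± 0.85 between the base and the apex of deaf rats. The part of other cells in the Scn10a result was not tested.

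**Figure D2:**
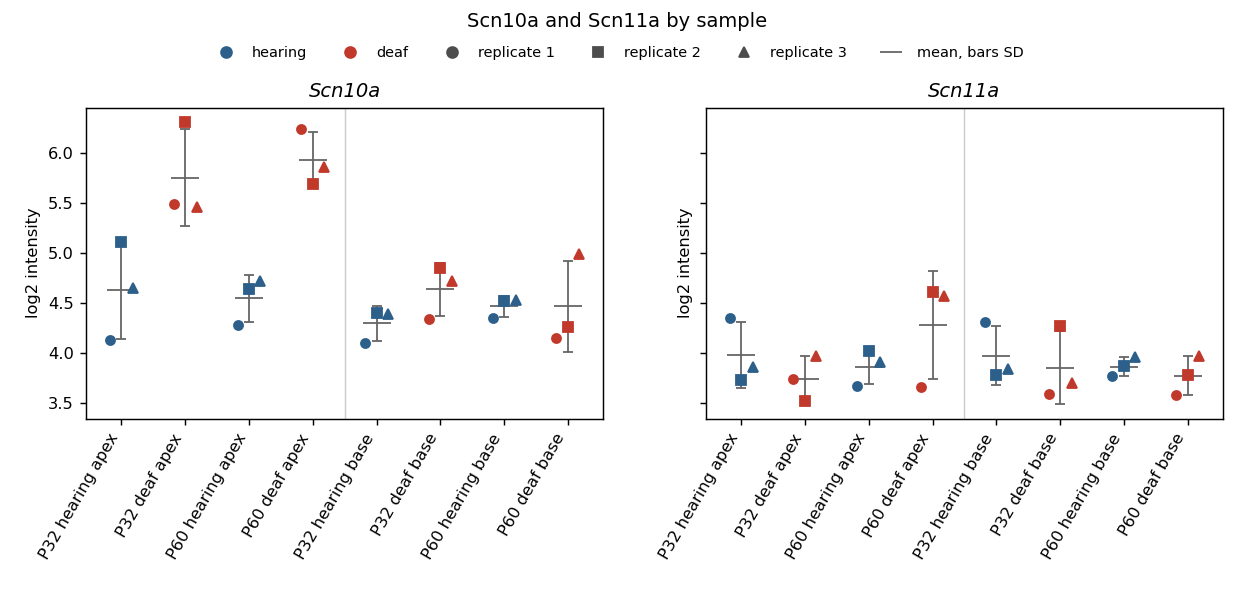
Log2 intensity (vertical axis) of Scn10a and Scn11a in each of the 24 samples by group (horizontal axis). Blue points are hearing and red points deaf, the marker shape gives the replicate, and bars show the mean and SD of 3 samples. For Scn10a all 6 deaf apical samples lie at 5.46 or above and the other 18 at 5.11 or below.

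The comparison of deaf with hearing ganglia at P60 asks what differs weeks after the hair cells were destroyed. Averaged over portions, it counts apical and basal samples as independent, so its SE is too small where they deviate together. Over the mean of both portions no gene of the 35 passed, where 0.338% of all features did, and 4 had an unadjusted p under 0.05 (7.36% of all features). Besides Scn10a (0.69 ± 0.18, adjusted p = 0.152) these were Cacna2d3, Scn4b and Cacng7, all lower in deaf ganglia. Cacna2d3 had a lowest value of 12.83, a median of 13.25 and a highest of 13.57 in the 6 deaf samples, and 13.52, 13.64 and 14.00 in the 6 hearing samples. The ranges just overlapped (-0.51 ± 0.16, adjusted p = 0.283). Cacna2d3 was lower in the deaf sample in 6 of 6 pairs by number, though the numbers were not shown to pair the apical samples. In the base alone its values were 13.07, 12.83 and 12.83 in deaf against 13.63, 13.54 and 13.52 in hearing samples, with no overlap. Absence of overlap in this direction held for 2.54% of all features in the base.

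Scn4b encodes a β subunit linked to the resurgent sodium current of fast-spiking neurons. At P60 it had 7.07, 7.45 and 8.02 (lowest, median, highest) in deaf and 7.38, 8.03 and 9.71 in hearing samples. The deaf sample was lower in 6 of 6 pairs (-0.70 ± 0.28, adjusted p = 0.538), and the high values were in hearing apex, at 9.71, 8.48 and 7.88. The difference was -1.49 on the platform of 8 samples and -0.30 on that of 16. Cacng7, a TARP of a subgroup with weaker action on AMPA receptors, had 9.15, 9.54 and 10.02 in deaf and 9.58, 10.04 and 10.65 in hearing samples (-0.60 ± 0.26, adjusted p = 0.606). In the apex alone its deaf values of 9.83, 9.15 and 9.68 lay below the hearing values of 10.65, 10.08 and 10.62.

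Scn8a, the pore-forming subunit of mature nodes of Ranvier, had the largest difference at P60 but also a wide spread. Deaf samples had a lowest value of 5.82, a median of 7.25 and a highest of 8.77, and hearing samples had 7.16, 8.57 and 9.05. The deaf sample was lower in 6 of 6 pairs (-1.17 ± 0.57, adjusted p = 0.711). Cacng6, a γ subunit related to that of skeletal muscle, was also lower in 6 of 6 pairs, at 5.67, 5.77 and 6.04 in deaf against 5.91, 6.28 and 6.54 in hearing samples (-0.42 ± 0.23, adjusted p = 0.792). In the P60 apex, 5 of the 35 were lower in deaf samples without overlap (Scn8a, Cacng6, Cacng7, Cacna1b and Cacna2d3) and 1, Scn10a, was higher, where 3.66% and 4.58% of all features were. None of these 5 passed the test. In the P60 base 3 were lower without overlap (Cacna2d1, Cacna2d3 and Cacng6) and 1, Cacna1i, was higher (3.59% of all features), and no gene of the 35 passed, where 0.019% of all features did.

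Of the 13 genes in the table of expressed transcripts, 11 lay below 0 at P60, with a median of -0.49, against 51.9% of all features of that table below 0 and a median of -0.01. Over the 35 genes the median was -0.19. At P32, 9 of the 13 lay below 0 with a median of -0.14, against 56.4% and -0.03 for all features of that table. Neuron markers moved alongside at P60, since 18 of 19 measured lay below 0 with a median of -0.36, and none of them passed. Their summed log2 intensity ran from 17.38 to 17.96 in the P60 deaf and 17.71 to 18.32 in the P60 hearing samples. The 11 measured macrophage markers lay above 0, with a median of 1.14, and Cd68, a lysosomal marker of macrophages, passed. Their summed intensity ran from 16.36 to 17.08 in P60 deaf and from 14.80 to 16.49 in P60 hearing samples. What part the mix of cells has in the channel values was not tested.

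At P32 no gene of the 35 passed over the mean of both portions, where 0.0076% of all features did. Among the smallest p-values were those of Scn10a, Scn2b and Cacng8. Scn10a had 4.34, 5.16 and 6.31 (lowest, median, highest) in the 6 deaf and 4.10, 4.39 and 5.11 in the 6 hearing samples (0.73 ± 0.18, adjusted p = 0.398). It was higher in deaf samples in 6 of 6 pairs by number, though the numbers were not shown to pair samples at P32. Scn2b, a β subunit linked to α subunits by a disulfide bond, had 5.82, 7.51 and 7.94 in deaf and 7.24, 7.82 and 8.41 in hearing samples (-0.51 ± 0.27). Its low values were in the deaf apex, at 6.97, 5.82 and 7.21, below the 8.41, 7.63 and 7.25 of the hearing apex. Cacng8, a TARP of AMPA receptors, differed by -0.42 ± 0.24 and had 5.47, 5.31 and 5.39 in the deaf base against 5.85, 6.11 and 5.97 in the hearing base. In the P32 apex Scn10a and Cacna1i, an α1 subunit of low-voltage-activated channels, were higher without overlap (1.16% of all features) and Scn2b was lower (1.06%). In the P32 base only Cacng8 was lower without overlap (0.639% of all features), none was higher, and none of the 26299 features passed (0%).

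**Figure D3:**
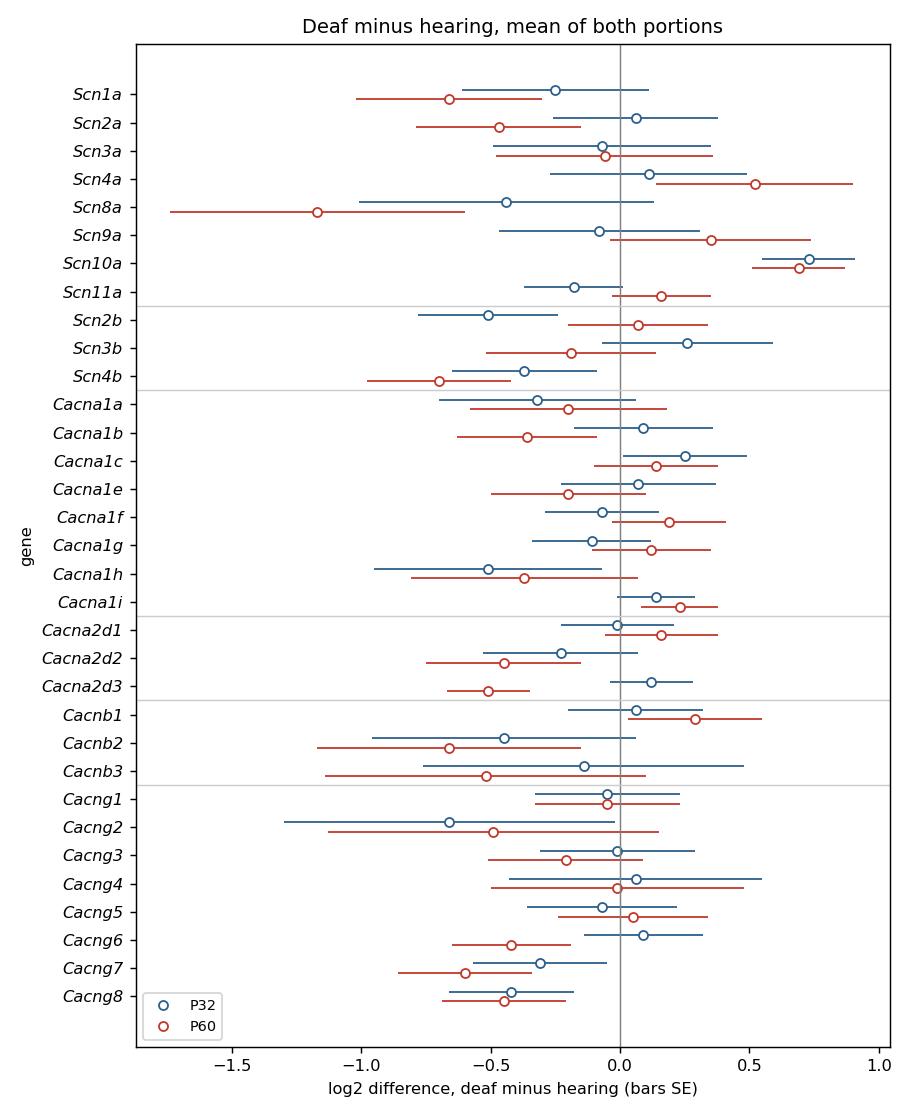
Difference between deaf and hearing ganglia for 33 of the 35 genes, over both portions (horizontal axis, log2, bars SE, 6 samples a side), at P32 in blue and at P60 in red. No gene passed the test at either age in this comparison, and Scn10a lies to the right at both ages, at 0.73 and 0.69.

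Base and apex were compared within each condition to see how the ganglion differs along the cochlea. In hearing rats no gene of the 35 passed, where 0.346% of all features did, and 8 had an unadjusted p under 0.05, 2 higher and 6 lower in the base, against 6.77% of all features. Cacna2d1, the α2δ subunit that binds gabapentin, had a lowest value of 11.30, a median of 11.42 and a highest of 12.28 in the 6 basal samples. In the 6 apical samples it had 10.09, 10.67 and 11.07. The groups did not overlap, as for 0.125% of all features in this direction, and the base was the higher in 6 of 6 pairs (0.95 ± 0.22, or 1.93-fold, adjusted p = 0.0769). Without P32 hearing apex replicate 1, the apical sample with basal levels of central glia markers, the difference was 1.05 and passed (adjusted p = 0.0219). The difference was 0.76 on the platform of 8 samples and 1.04 on that of 16.

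Of the 6 genes with lower values in the base and an unadjusted p under 0.05, 4 encode pore-forming subunits of neurons. None of the 6 passed the test. Of all 35 genes, 23 lay below 0 and 12 above, the latter with the pore-forming Cacna1e (0.52) and Cacna1g (0.37) among them. Scn9a, the α subunit of sensory and sympathetic neurons, had 4.87, 5.46 and 6.14 in basal and 6.04, 6.56 and 6.95 in apical samples (-1.05 ± 0.39, adjusted p = 0.441). Cacna1a, the α1 subunit of the P/Q-type channels of presynaptic endings, had 7.74, 8.24 and 9.14 against 8.80, 9.13 and 10.31 (-0.99 ± 0.38, adjusted p = 0.461). The base was the lower in 6 of 6 pairs for both genes. Scn3a and Scn1a, α subunits of central and sensory neurons, were likewise lower in 6 of 6 pairs, by -0.96 ± 0.42 and -0.88 ± 0.36. Scn4b had 7.28, 7.68 and 8.18 in basal and 7.70, 8.40 and 9.71 in apical samples (-0.77 ± 0.28, adjusted p = 0.395, 6 of 6 pairs lower). Cacng8 had 5.85, 6.04 and 6.46 against 5.65, 6.61 and 7.70 and was lower in 5 of 6 pairs (-0.67 ± 0.24, adjusted p = 0.396).

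Same-numbered apical and basal samples of hearing rats deviated together, and these calls changed when the fit used that. With the replicate number as a block Cacna2d1 passed, 1 gene of the 35 against 0.76% of all features. With a block within each age Cacna2d1 and Cacna1a passed, against 1.5%. With apical and basal samples of the same number as a random block, 7 genes passed, against 4.84% of all features. These were Cacna2d1, higher in the base (adjusted p = 0.00381), and 6 genes that were lower there: Scn4b (0.0104), Scn9a (0.0119), Cacna1a (0.0134), Cacng8 (0.0275), Scn1a (0.0277) and Scn3a (0.0383).

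In deaf rats Scn10a alone passed, as given above, and 6 genes in all had an unadjusted p under 0.05 (8.7% of all features). Scn2b had a lowest value of 7.61, a median of 7.87 and a highest of 8.17 in the 6 basal samples and 5.82, 7.09 and 7.66 in the 6 apical samples (0.95 ± 0.27, adjusted p = 0.129). It was higher in the base in 5 of 6 pairs. Scn3a had 5.84, 7.84 and 8.82 in basal and 8.43, 8.95 and 9.21 in apical samples (-1.15 ± 0.42, adjusted p = 0.308). Cacng8 had 5.31, 5.63 and 6.11 against 5.80, 6.22 and 7.04 (-0.66 ± 0.24, adjusted p = 0.308), and both genes were lower in the base in 6 of 6 pairs. Cacna2d3 (-0.40 ± 0.16) was also lower in 6 of 6 pairs. With apical and basal samples of the same number as a random block, these 4 genes passed too, for 5 of the 35 against 6.96% of all features: Scn2b, higher in the base (adjusted p = 0.00766), and Scn3a (0.0109), Cacng8 (0.0229) and Cacna2d3 (0.0355), lower there. Same-numbered deaf apical and basal samples correlated at 0.617 to 0.838 at P32 but at 0.0833 to 0.293 at P60. Cacna2d1 differed by only 0.16 in deaf rats, and the change of its deafness effect from apex to base, -0.79 ± 0.31, did not pass (adjusted p = 1).

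Of the 13 genes in the table of expressed transcripts, 12 lay below 0 for base against apex in hearing rats and 12 in deaf rats. Their medians were -0.45 and -0.41, against -0.04 and -0.05 for all features of that table, of which 58.5% and 58.7% lay below 0. Over all 35 genes the medians were smaller, -0.11 in hearing rats with 23 genes below 0 and -0.20 in deaf rats with 25, against -0.04 for all 26299 features in both. Cell-type markers differed between the portions as well. Central glia markers were higher in the base by a median of 1.97 in hearing and 2.58 in deaf rats, with 4 and 5 of 7 passing, and neuron markers were lower by a median of -0.25 and -0.26, with none of 19 passing. The summed neuron level ran from 17.54 to 17.99 in hearing base and from 17.65 to 18.32 in hearing apex, and from 17.24 to 17.82 in deaf base and 17.30 to 18.03 in deaf apex. Their part in the channel values was not tested.

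**Figure D4:**
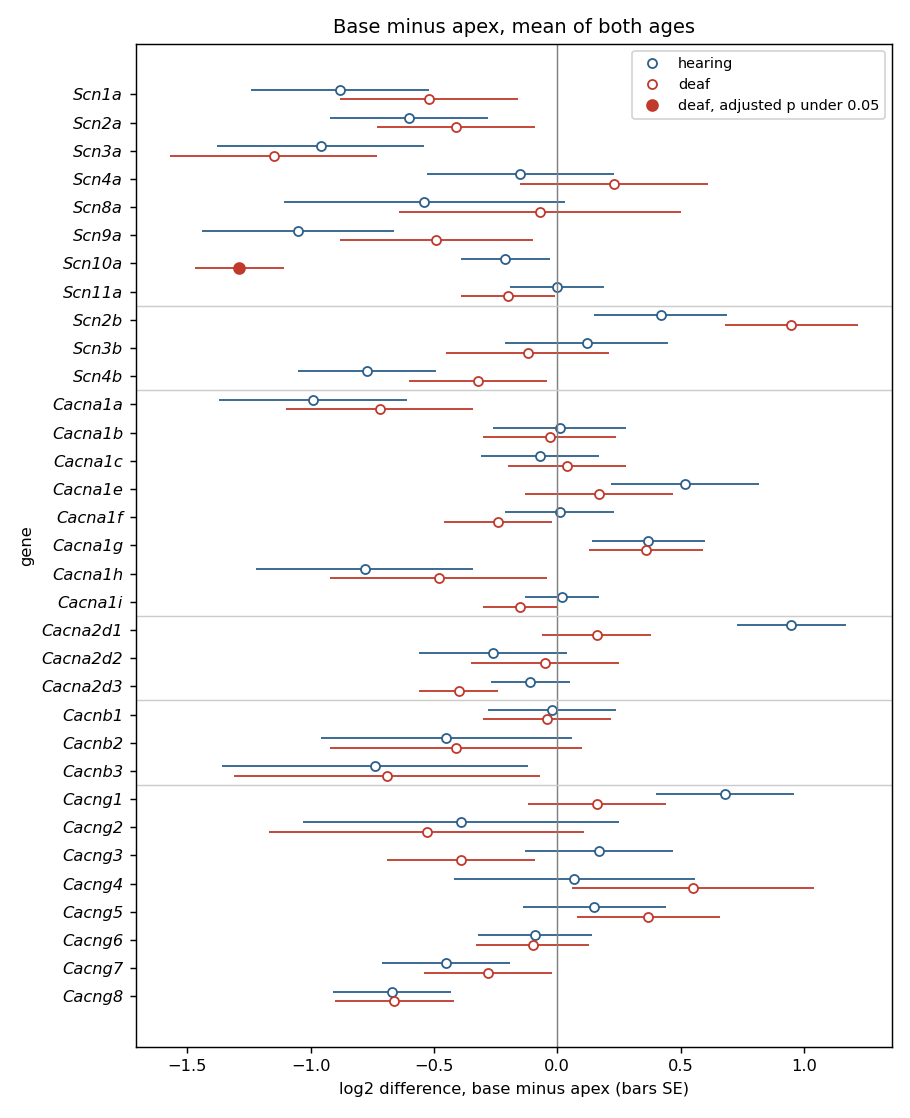
Difference between base and apex for 33 of the 35 genes, over both ages (horizontal axis, log2, bars SE, 6 samples a side), in hearing rats in blue and deaf rats in red. The filled point marks the gene that passed the test, Scn10a in deaf rats at -1.29; Cacna2d1 in hearing rats, at 0.95, did not pass.

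Age gave no call among the 35 genes. In hearing rats 0.0038% of all features passed between P60 and P32, and in deaf rats 0.0266% did. Cacng8 had the smallest p of the 35 in both conditions, with 5.85, 6.39 and 7.70 (lowest, median, highest) at P60 and 5.65, 6.04 and 6.76 at P32 in hearing rats (0.56 ± 0.24, adjusted p = 0.815). In deaf rats it had 5.80, 6.07 and 7.04 against 5.31, 5.64 and 6.42 (0.53 ± 0.24, adjusted p = 0.855). Cacnb2, a β subunit best known from heart and retina, had 8.98, 9.92 and 10.64 at P60 against 8.02, 8.83 and 9.90 at P32 in hearing rats (1.03 ± 0.51, adjusted p = 0.815). Cacna2d3 had 13.52, 13.64 and 14.00 at P60 and 12.76, 13.39 and 13.67 at P32 in hearing rats (0.36 ± 0.16), and Cacng6 had 5.91, 6.28 and 6.54 against 4.84, 5.72 and 6.64 (0.45 ± 0.23). The groups overlapped for each of these genes.

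In deaf rats Scn3a, Scn9a and Cacna1g followed Cacng8 in the order of p. Scn3a had 7.60, 8.87 and 9.21 at P60 and 5.84, 8.26 and 8.97 at P32 (0.77 ± 0.42, adjusted p = 0.855). Scn9a had 5.74, 6.49 and 7.40 against 4.19, 5.80 and 7.54 (0.70 ± 0.39), and its direction differed between the platforms, at -0.31 on that of 8 samples and 1.21 on that of 16. Without 1 sample the difference ran from 0.37 to 0.97. Cacna1g, an α1 subunit of low-voltage-activated channels, had 5.25, 7.34 and 7.92 against 4.70, 6.96 and 7.60 (0.43 ± 0.23). The deafness effect itself did not differ between the ages for any of the 35 after adjustment, and 1.44% of all features had an unadjusted p under 0.05. The smallest p was that of Cacna2d3, whose deafness effect at P60 minus that at P32 was -0.63 ± 0.22 (unadjusted p = 0.012, adjusted p = 1).

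Several of the genes differed more between replicate numbers than between groups. For 21 of the 35 the combinations of age and replicate number held a larger share of the sum of squares than the 8 groups. The same held for 21386 of the 26299 features. Both shares include any difference between the ages. The median share of age and number together was 37.3% for the 35 genes and 58.9% for all features. That of the groups was 27.8% and 20.1%. For Cacna1g age and number held 90.2%, age alone 2.65% and platform alone 82.1%. Its values at P32 were 4.70 to 5.53 in the 4 samples numbered 1, 6.65 to 7.31 in those numbered 2 and 7.43 to 7.68 in those numbered 3. At P60 they were 5.25 to 6.45, 7.17 to 7.45 and 7.27 to 7.92.

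Cacnb3, a β subunit of neuronal calcium channels, showed the number 2 samples apart from both others. At P32 they had 10.39 to 12.25, against 7.92 to 8.78 for number 1 and 8.51 to 9.27 for number 3. At P60 they had 9.95 to 11.01, against 7.99 to 9.62 and 8.38 to 9.48. Numbers 2 and 3 share a platform, so platform does not separate them. For Cacnb3 age and number held 84.1%, and age alone 1.57%. Cacng2 (83.6%) was low in the samples numbered 3, at 10.68 to 12.34 against 12.75 to 14.63 in the others at P32, and 11.90 to 13.31 against 13.00 to 14.19 at P60. Cacng4, another TARP (83.1%), was high in those numbered 2 at P32, at 9.01 to 9.54 against 6.71 to 8.19 in the others. The percentages for Cacng2 and Cacng4 are likewise of age and number together, and age alone held 3.41% and 0.239%. For Scn10a the groups held 81.9% and age and number 10.2%.

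**Figure D5:**
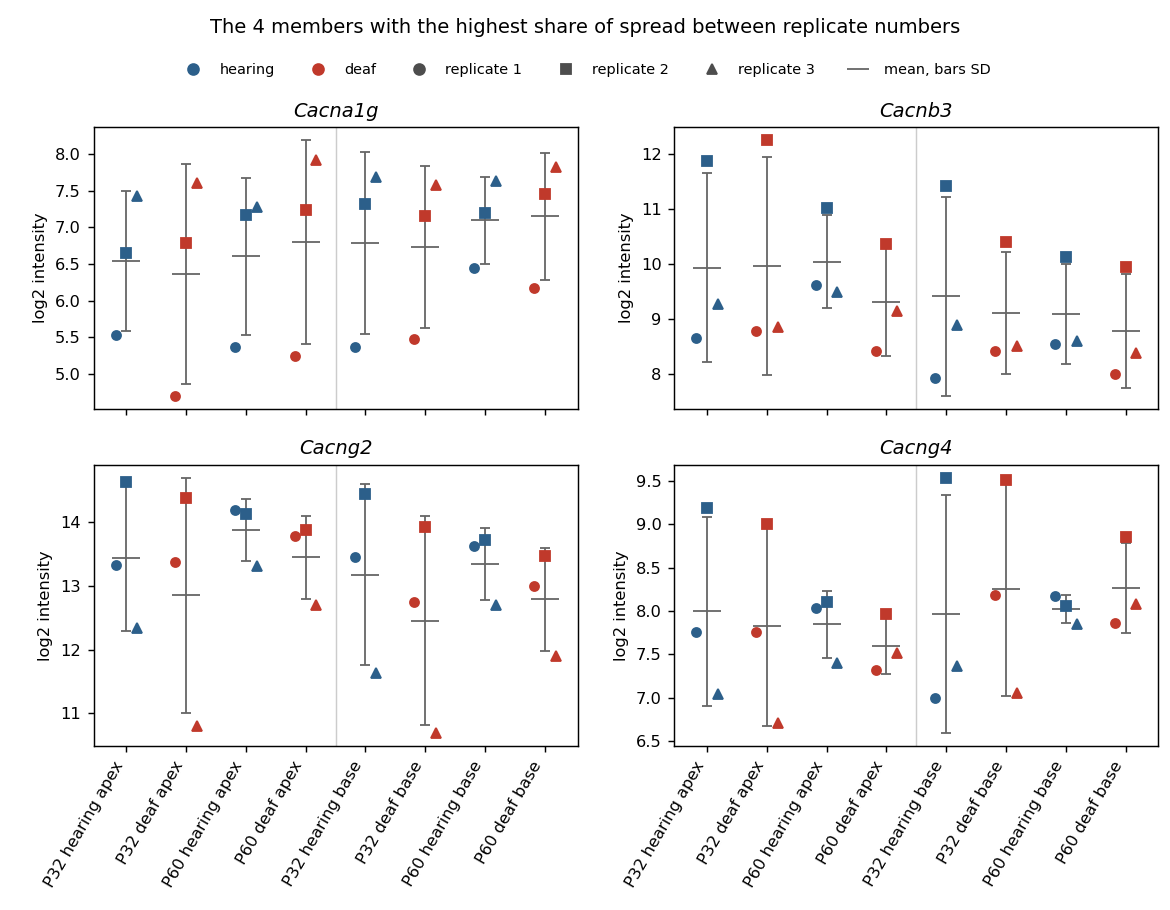
Log2 intensity (vertical axis) in each of the 24 samples by group (horizontal axis) for Cacna1g, Cacnb3, Cacng2 and Cacng4. These are the 4 genes with the highest share of spread between combinations of age and replicate number. The marker shape gives the replicate, blue is hearing, red is deaf, and bars show the mean and SD of 3 samples. In Cacnb3 the samples numbered 2 lie highest in every group.

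Genes that work with the channels were followed in 3 lists. Of 16 measured genes of the axon initial segment and the node of Ranvier, where sodium channels cluster, 1 passed at P60. It was Nrcam, a cell adhesion molecule of nodes, higher in deaf ganglia (0.78 ± 0.16, adjusted p = 0.0448), where 0.338% of all features passed. Of the 16, 13 lay below 0 with a median of -0.24, against 52.2% of all features below 0. In the base of deaf rats Cntn1, the adhesion molecule contactin, rose over the apex by 1.33 ± 0.25 (adjusted p = 0.0104). None passed as lower there, and 0.973% of all features passed in this comparison. Of the 16, 10 lay below 0 in it, with a median of -0.12. Central glia markers were also higher in the base, and their part in the Cntn1 value was not tested. None of the 16 passed for base against apex in hearing rats, where Bcan, a proteoglycan of the perinodal matrix, had 1.75 ± 0.49 (adjusted p = 0.175). None of 10 measured sodium channel regulators passed in these comparisons. Fgf12, an intracellular binding partner of sodium channels, had -0.62 ± 0.16 in deaf ganglia at P60 (adjusted p = 0.144). None of 17 measured partners of calcium channels passed either. Their median was -0.27 at P60, with 13 of 17 below 0. Rims1, an active zone protein that binds calcium channels, had -0.82 ± 0.43 for deaf against hearing at P60, and its base lay below its apex in hearing rats by -1.14 ± 0.43. Against the median of all features, -0.01 at P60, the medians of the partner lists were -0.24, -0.09 and -0.27.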

How the data were processed

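The authors deposited 1-colour intensity values normalized with RMA, per the submitters' processing notes, in a table for each platform (8 and 16 samples) and in a table of 14138 expressed transcripts. Technical replicates were averaged by the authors, per the labels. Not given in the sources used here are the version of RMA, the choice of the 14138 and whether both platforms were normalized together. The intensities are linear, so log2 was taken here.

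The platform tables were joined (26419 transcripts). RefSeq accessions were named through a RefSeq table (GRCr8): 9747 transcripts matched 1 symbol and 16672 none. The brightest transcript was kept for each of 9627 genes, and unnamed transcripts were kept, for 26299 features. A linear model of limma 3.58.1 with eBayes (R 4.3.3) was fitted to all 24 samples with 8 group means and platform, leaving 15 residual degrees of freedom. Tests are two-sided, with Benjamini-Hochberg adjustment over all features in each of 12 comparisons and a threshold of 0.05. The labels call the samples biological replicates. The script was tested on simulated data.

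The genes and lists were chosen with earlier results of these data known. Values are given for each gene that passed, for the 4 genes with the smallest p in each of the 6 comparisons that average portions or ages, and for the 3 brightest and 3 dimmest. Of the genes this rule gives, 2 are not reported here by name, though they count among the 35. With platform removed, all same-numbered pairs correlated above 0.1 for base against apex in hearing rats (0.222 to 0.786 at P32, 0.55 to 0.801 at P60) and for deaf against hearing in the P60 base (0.314 to 0.791), where the numbers were taken to pair the samples. They did not for the other comparisons as a whole. The main fit has no term for the pairs, which enter only the counts of pairs and the alternative fits with a block. With portions as a random block, the correlation of same-numbered apical and basal samples was 0.608. Where such samples deviate together, the main fit's SE of a difference averaged over both portions is too small.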

Additional observations from a re-analysis of the deposited data

How the results depend on the processing

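Of the 35 genes, none passed under any alternative for deaf against hearing at P32, in the P32 apex, the P32 base or the P60 base, for P60 against P32 in either condition, or for the differences of the deafness effect between ages or portions. In the P60 apex, 0 passed in place of 1 with quantile normalization, without the platform term, on the platform of 16 samples alone, with an offset of 50 before log2, with portions as a random block, without the samples numbered 2, and, where Scn10a is not tested, among transcripts of the expressed table or at or above the median brightness. The count without 1 sample was 0 to 1. Scn10a at P60 apex then had adjusted p-values of 0.05 with quantile normalization, 0.111 without the platform term, 0.0615 with the offset (difference 0.60), 0.196 with the random block and 0.176 without the samples numbered 2. For base against apex in deaf rats the count of 1 became 0 on the platform of 16 samples alone and in the 2 sets of transcripts that leave Scn10a out, 5 with portions as a random block (1 higher and 4 lower, against 6.96% of all features), and 6 with that and a replicate block within each age. In hearing rats the count of 0 became 1 with named genes only (Cacna2d1), 1 with the replicate block, 2 with the replicate block within each age, 7 with portions as a random block and 5 with both. It was 0 to 1 without 1 sample, the 1 being Cacna2d1 without P32 hearing apex replicate 1. At P60 over both portions the replicate block within each age gave 1, Scn10a (adjusted p = 0.0388). The numbers were not shown to pair the P60 apical samples, however. Portions as a random block weakened the same Scn10a difference, with an unadjusted p of 0.0229 in place of 0.0014. For deaf against hearing at P32 that block gave Scn10a 0.0175 in place of 0.000907, and neither passed. The replicate block changed no other call, and the block within each age could not be fitted for P60 against P32, where age and number are joined.

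For Scn10a in the P60 base (0.00), the difference went from -0.21 to 0.16 without 1 sample. Its deafness effect at P60 minus P32 (-0.04) was 0.01 with the offset and 0.16 without the samples numbered 2, and went from -0.18 to 0.08 without 1 sample. The number of features called among all 26299 moved more than the members: 4 to 376 for deaf against hearing at P60 (89), 10 to 1272 for base against apex in hearing rats (91) and 30 to 1830 in deaf rats (256), and 0 to 150 in the P60 apex (28). The alternatives that leave out the samples numbered 2, or combine a replicate block within each age with portions as a random block, were chosen after seeing the data. In each alternative the cause was not tested. Brightness limits the dim rows, Scn10a among them, whose mean lies at the 20.4th percentile.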
